A study of Mus musculus with 27 samples.

Results

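The genes described here are 10 immediate early genes, 5 of which encode AP-1 or related bZIP transcription factors: Fos, Fosb, Jun, Junb and Atf3. The other members are Egr1 and Nr4a1, which encode transcription factors of other families, Ier2, which encodes a nuclear protein, Dusp1, a phosphatase that switches off MAP kinases, and Zfp36, a protein that destabilises AU-rich messenger RNAs. They were found by the gene symbol of each probe on Illumina bead arrays, as 10 of 19057 named genes, and where a gene had several probes, the brightest on average across the 27 arrays stood for it. The study profiled osteosarcomas, malignant tumours of bone, in mice that express Cre from a Col2.3-Cre transgene (a rat Col1a1 promoter fragment active in osteoblast lineages) on a C57BL/6 background. Their crossing partners carried floxed p53, which Cre deletes, or LSL-p53R172H, a point-mutant allele that Cre switches on. By this design every tumour carried a Cre-altered p53 allele, and the labels do not say which allele each specimen had, nor the age of the mice. The groups were 2 liver metastases, 7 lung metastases, 12 primary tumours that had given metastases (metastatic primaries) and 6 localized primary tumours (localized primaries). Each lung metastasis was compared with the primary of the same specimen, and the labels do not state whether each specimen was a separate animal, so p-values measure the spread between specimens.

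Immediate early genes are transcribed within minutes of a signal, such as a growth factor, cytokine or cell stress, without need of new protein synthesis, and most of their messenger RNAs are short-lived. FOS family proteins pair with JUN family proteins to form AP-1, while DUSP1 and ZFP36 are made in the same wave and dampen it by acting on kinases and on messenger RNAs. In bone, FOS and its relatives take part in osteoblast and osteoclast differentiation, and Fos was first known as the oncogene of a virus that causes osteosarcoma in mice.

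Between 42.6% and 47.5% of all probes were detected on each array. Fos, Jun, Junb, Egr1, Dusp1 and Zfp36 were detected on 27 of 27 arrays, Fosb and Atf3 on 26, Ier2 on 4 and Nr4a1 on 0, where detected means a detection p under 0.05. For the 8 genes detected on 26 or 27 arrays, the standard error over the beads of an array was 2.23% to 9.74% of the signal. Levels below are log2 normalized intensities, and a level of one gene's probe is not comparable with that of another gene. The tissue labels were checked with marker genes, whose normalized linear intensities were summed. The summed intensity of 9 osteoblast markers was 970 in the lung metastasis of FC-28, 8377 in its primary, and 4278, 1478 and 7611 in the primaries of CR-45, CR-65 and RF-56, against 55752 to 157800 on every other array. The lung metastasis of FC-28 also had the highest summed intensity of lung epithelium markers (203606, against 87999 to 151500 in the other lung metastases) and of endothelial markers (85456, against 11284 to 25922). The comparison of primaries was also run without the 4 primaries low in osteoblast markers, and that of lung metastases without FC-28.

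**Figure D1:**
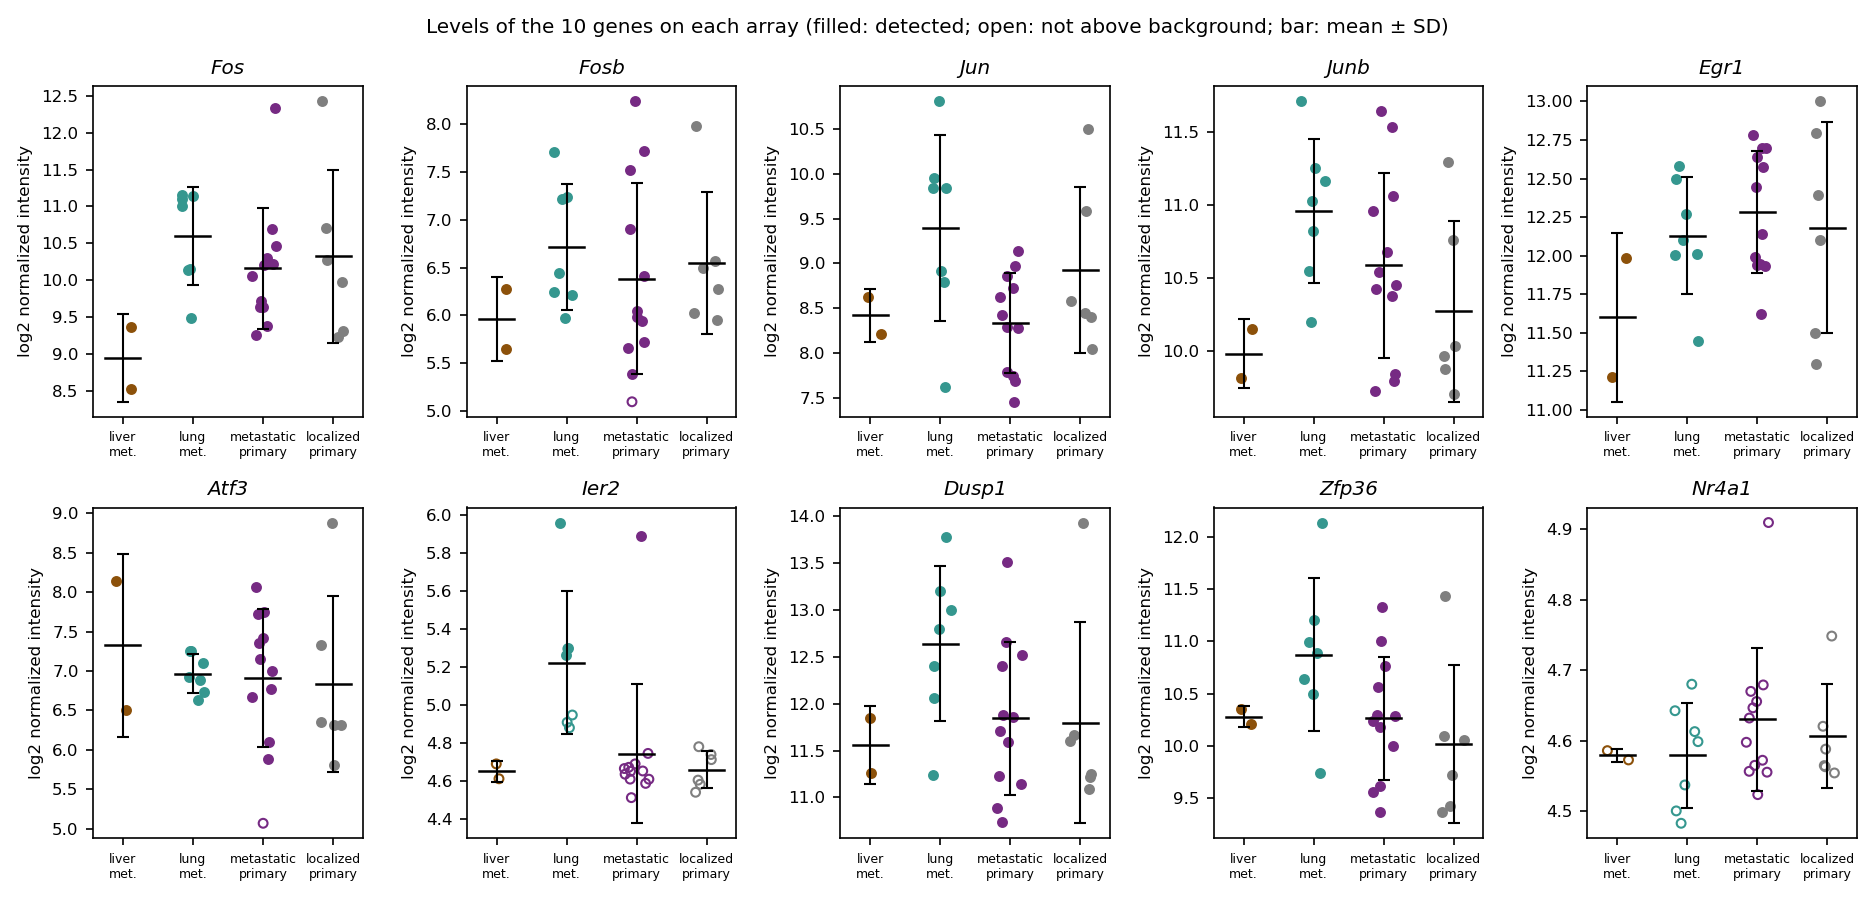
Log2 normalized intensity of each of the 10 genes (one panel per gene, each with its own vertical axis) on every array, by group; filled points were detected, open points were not above background, and bars show the mean ± SD. The 7 lung metastases lie on average highest for Fos, Fosb, Jun, Junb, Dusp1 and Zfp36, while single primaries, above all CR-65 and RF-212, reach as high or higher for Fos, Fosb, Atf3 and Dusp1.

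Promoter sequence was available for 8 of the 10 genes in a RefSeq table (GRCm38.p6), all but Egr1 and Ier2. The 5 promoters shown belong to Jun and Junb, the 2 genes that rose in lung metastases, and to Fos, Dusp1 and Zfp36, each of which was in at least 1 of the closest correlations between primaries. Fosb and Atf3 were also in such correlations, but their promoters are not shown. Each is the 250 bases before the transcription start, read 5′ to 3′ on the strand of the gene, with matches to 8 motifs in capitals. They lie at chr4:95052223-95052472 (minus strand, Jun), chr8:84978749-84978998 (minus strand, Junb), chr12:85473640-85473889 (plus strand, Fos), chr17:26508473-26508722 (minus strand, Dusp1) and chr7:28379229-28379478 (minus strand, Zfp36).
Jun: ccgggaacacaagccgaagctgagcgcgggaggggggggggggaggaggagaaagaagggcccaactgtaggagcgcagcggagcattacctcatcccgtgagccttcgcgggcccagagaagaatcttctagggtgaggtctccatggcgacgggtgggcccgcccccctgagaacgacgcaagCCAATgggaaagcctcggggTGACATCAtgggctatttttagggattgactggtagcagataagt
Junb: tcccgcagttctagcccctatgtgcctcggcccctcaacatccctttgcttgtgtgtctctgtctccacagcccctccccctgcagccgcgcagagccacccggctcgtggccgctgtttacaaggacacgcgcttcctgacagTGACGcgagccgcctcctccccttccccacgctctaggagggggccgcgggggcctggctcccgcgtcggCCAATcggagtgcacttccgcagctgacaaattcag
Fos: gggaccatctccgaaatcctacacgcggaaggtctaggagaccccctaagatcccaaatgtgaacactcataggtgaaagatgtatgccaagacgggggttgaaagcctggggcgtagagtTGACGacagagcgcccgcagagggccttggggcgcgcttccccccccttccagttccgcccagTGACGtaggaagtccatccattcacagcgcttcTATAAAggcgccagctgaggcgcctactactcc
Dusp1: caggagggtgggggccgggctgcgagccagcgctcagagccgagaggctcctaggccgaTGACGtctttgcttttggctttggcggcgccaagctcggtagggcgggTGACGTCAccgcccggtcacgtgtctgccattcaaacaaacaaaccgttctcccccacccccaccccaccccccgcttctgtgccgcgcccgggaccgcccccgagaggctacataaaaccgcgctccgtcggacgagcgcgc
Zfp36: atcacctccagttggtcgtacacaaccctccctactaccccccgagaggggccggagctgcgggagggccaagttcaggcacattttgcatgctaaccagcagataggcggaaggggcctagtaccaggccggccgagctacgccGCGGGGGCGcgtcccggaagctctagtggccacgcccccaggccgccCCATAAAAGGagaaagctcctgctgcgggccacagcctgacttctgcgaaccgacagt

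The motifs were searched on both strands of these 250 bases in the 8 promoters and in all 32851 promoters of the table. The AP-1 site TGACTCA stood in 0 of the 8 and in 4.46% of all promoters. The cAMP response element TGACGTCA, which ATF and CREB proteins bind, stood in Dusp1 alone of the 8 (bases -143 to -136) and in 1.55% of all promoters. The element's half-site TGACG, which overlaps the full element in Dusp1, stood in 6 of the 8, all but Jun and Zfp36, and in 17.8% of all promoters. Jun held the AP-1-like site TGACATCA, first described in its own promoter, at bases -45 to -38, a sequence found in 2.93% of all promoters. Zfp36 held a CArG box, the element bound by serum response factor, at bases -58 to -49 (1.47% of all promoters). The sequence GCGGGGGCG, bound by EGR proteins, stood in Fosb, Zfp36 and Nr4a1 (2.57% of all promoters). CCAAT stood in Jun and Junb (33.8% of all promoters), and TATAAA in Fos, at bases -33 to -28 (12.4%). These are matches of letters only, and bases farther upstream were not searched, so a motif missing here may still lie there.

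The FOS proteins are the partners of JUN in AP-1. Fos stood at 8.53 and 9.37 in the liver metastases, at 9.49 to 11.15 (median 11.00) in lung metastases, at 9.26 to 12.33 (median 10.13) in metastatic primaries and at 9.23 to 12.43 (median 10.13) in localized primaries. The mean was lowest in the liver metastases (8.95 ± 0.59, SD, n = 2), while the other groups, at 10.60 ± 0.67 (n = 7), 10.16 ± 0.81 (n = 12) and 10.32 ± 1.18 (n = 6) in the same order, overlapped within their SDs. Fosb, a partner of JUN proteins like Fos, stood at 5.65 and 6.27 in liver metastases, at 5.97 to 7.70 (median 6.44) in lung metastases, at 5.10 to 8.24 (median 6.01) in metastatic primaries and at 5.96 to 7.97 (median 6.38) in localized primaries. All 4 groups overlapped, and the lowest value, in the primary of FC-279, was not above background.

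Both JUN family members had their highest group mean in lung metastases. Jun stood at 8.21 and 8.63 in liver metastases, at 7.63 to 10.81 (median 9.84) in lung metastases, at 7.46 to 9.14 (median 8.36) in metastatic primaries and at 8.05 to 10.49 (median 8.52) in localized primaries. Its group means ran from 9.40 ± 1.03 in lung metastases over 8.93 ± 0.92 in localized primaries and 8.42 ± 0.30 in liver metastases to 8.34 ± 0.56 in metastatic primaries, and each overlapped the next within 1 SD. Junb stood at 9.81 and 10.15 in liver metastases, at 10.20 to 11.72 (median 11.03) in lung metastases, at 9.73 to 11.65 (median 10.50) in metastatic primaries and at 9.70 to 11.30 (median 10.00) in localized primaries. For Junb the higher liver metastasis (10.15) and the lowest lung metastasis (10.20) were both of CR-147, while the primaries spanned both groups. Junb has a second probe, which was detected on 0 arrays.

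Among the other transcription factors, Egr1 varied least of the 8 genes detected on 26 or 27 arrays, with a range over all arrays of 1.79. It stood at 11.21 and 11.99 in liver metastases, at 11.45 to 12.58 (median 12.10) in lung metastases, at 11.62 to 12.78 (median 12.29) in metastatic primaries and at 11.30 to 13.00 (median 12.25) in localized primaries. Atf3, a stress-induced partner of JUN proteins, stood at 6.50 and 8.15 in liver metastases, at 6.63 to 7.25 (median 6.92) in lung metastases, at 5.07 to 8.06 (median 7.08) in metastatic primaries and at 5.81 to 8.88 (median 6.34) in localized primaries. Its spread was narrow in lung metastases (SD 0.24) and wide in metastatic (SD 0.87) and localized primaries (SD 1.12). Nr4a1, an orphan nuclear receptor, lay between 4.48 and 4.91 on all arrays, not above background on any.

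For the genes that dampen the response, Dusp1 stood at 11.27 and 11.85 in liver metastases, at 11.24 to 13.78 (median 12.80) in lung metastases, at 10.74 to 13.52 (median 11.78) in metastatic primaries and at 11.09 to 13.94 (median 11.43) in localized primaries. Zfp36 stood at 10.21 and 10.35 in liver metastases, at 9.74 to 12.14 (median 10.89) in lung metastases, at 9.37 to 11.33 (median 10.26) in metastatic primaries and at 9.36 to 11.44 (median 9.89) in localized primaries. The groups overlapped for both genes. Ier2 was detected in the lung metastases of FC-28 (5.96), RF-212 (5.30) and RF-364 (5.26) and in the primary of CRE-155 (5.89), and was not above background elsewhere. The 8 genes other than Ier2 and Nr4a1 ranged over 1.79 to 3.90 on the log2 scale across the 27 arrays, which is 3.46-fold for Egr1 and 15.0-fold for Fos. Over the 18 primaries the SD of Atf3, Fos, Fosb and Dusp1 (0.93, 0.92, 0.90 and 0.88) was larger than that of 84.6%, 84.2%, 83.5% and 82.6% of the genes detected on at least 14 of the 27 arrays, and that of Egr1 (0.49) larger than that of 50.3%.

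The first comparison asked whether primaries that had given metastases differed from localized ones, and none of the members did so beyond the spread between tumours. Of 11684 genes tested with limma, 0% were called higher and 0.00856% lower in metastatic primaries at an adjusted p under 0.05, and 0 of the 8 members tested were called in either direction, nor had any an unadjusted p under 0.05. Jun came nearest, with a mean of 8.34 ± 0.56 in 12 metastatic primaries and 8.93 ± 0.92 in 6 localized primaries (log2 fold change -0.59, SE 0.33, 95% interval -1.28 to 0.10, adjusted p = 0.797 by limma). Junb had a log2 fold change of 0.32 (interval -0.32 to 0.95) and Zfp36 of 0.25 (-0.40 to 0.90). For Fos, Fosb, Egr1, Atf3 and Dusp1 it lay between -0.16 and 0.10, with intervals that reached at least 0.42 to either side of 0. The median over the 8 members was 0.06, beside 0.01 over all genes tested. Fos and Fosb, negative over all primaries at -0.16 each, turned to 0.26 and 0.12 without the localized primary CR-65, and to 0.14 and 0.15 without the 4 primaries low in osteoblast markers.

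**Figure D2:**
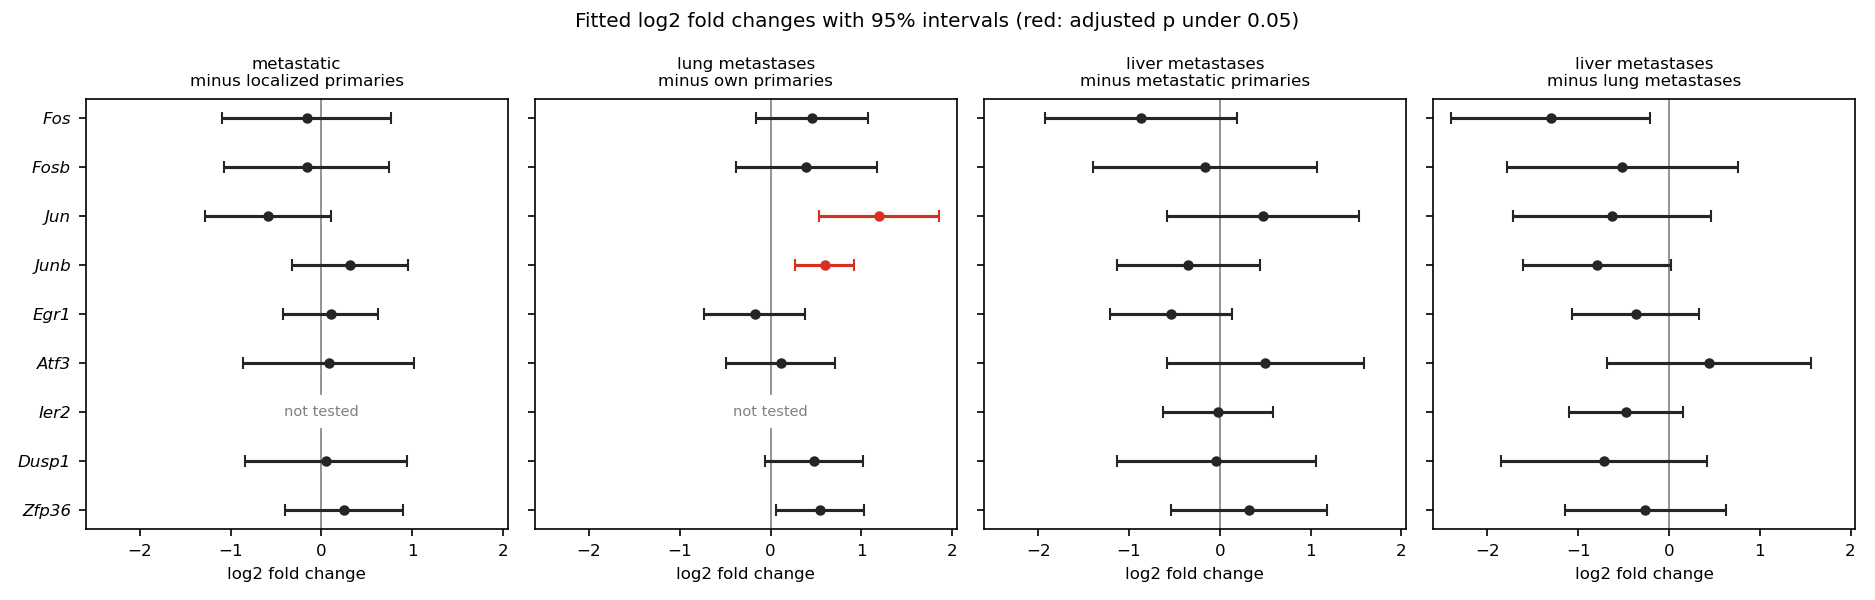
Fitted log2 fold change of each gene tested in the 4 comparisons, with 95% intervals from limma; red marks an adjusted p under 0.05. The intervals of Jun and Junb between lung metastases and their own primaries are the red ones, at 1.19 and 0.60, while those of most other genes cross 0.

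In the lung metastases, compared with the primary of the same specimen, Jun and Junb rose. Over all 11214 genes tested 5.7% were called higher and 2.59% lower, and among the members tested 2 of 8 were called higher and 0 lower. Taking the specimens as RF-379, RF-364, RF-212, FC-279, FC-28, CRE-155 and CR-147, Jun stood at 9.84, 8.80, 9.84, 9.95, 10.81, 8.91 and 7.63 in the lung metastases, and at 7.74, 8.63, 8.87, 8.29, 8.73, 7.46 and 7.70 in their own primaries. It was higher in 6 of 7 lung metastases, by 0.17 to 2.10, and lower by 0.07 in that of CR-147. The fitted log2 fold change was 1.19 (SE 0.29, adjusted p = 0.0390 by limma), or 2.29-fold. An exact two-sided sign-flip permutation test over the same 7 differences gave p = 0.03125, not adjusted for the number of members.

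Junb, in the same order of specimens, stood at 11.03, 10.55, 11.16, 10.83, 11.72, 11.25 and 10.20 in the lung metastases, and at 10.54, 9.84, 10.45, 9.73, 11.54, 10.68 and 9.79 in their own primaries. It was higher in 7 of 7 lung metastases, by 0.17 to 1.10, so that the pairs all ran one way although the 2 groups overlapped. Its log2 fold change was 0.60 (SE 0.14, adjusted p = 0.0384 by limma), or 1.51-fold. The exact sign-flip permutation p was 0.015625, again unadjusted and the smallest that 7 pairs can give. Junb is a JUN family member that can restrain Jun at some target genes and replace it at others.

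The remaining members did not pass the threshold. Zfp36 was higher in 5 of 7 lung metastases (log2 fold change 0.55, SE 0.22, adjusted p = 0.150 by limma), Dusp1 in 5 of 7 (0.48, SE 0.24, adjusted p = 0.237) and Fos in 6 of 7 (0.45, SE 0.27, adjusted p = 0.311). The exception for Fos was RF-212, with 11.10 in the lung metastasis and 12.33 in the primary. Fosb had a log2 fold change of 0.39 (higher in 4 of 7), Atf3 of 0.11 (3 of 7) and Egr1 of -0.17 (4 of 7), and their adjusted p-values were 0.477, 0.808 and 0.668 by limma. Egr1 was lower by 1.25, 0.78 and 0.69 in the lung metastases of FC-28, RF-212 and RF-379 and higher by 0.14 to 0.55 in the others. The median log2 fold change of the 8 members was 0.46, with 7 of 8 above 0, beside -0.06 over all genes tested. Ier2 was too seldom detected to be tested here, and was above background in 3 of 7 lung metastases and 1 of 7 own primaries.

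**Figure D3:**
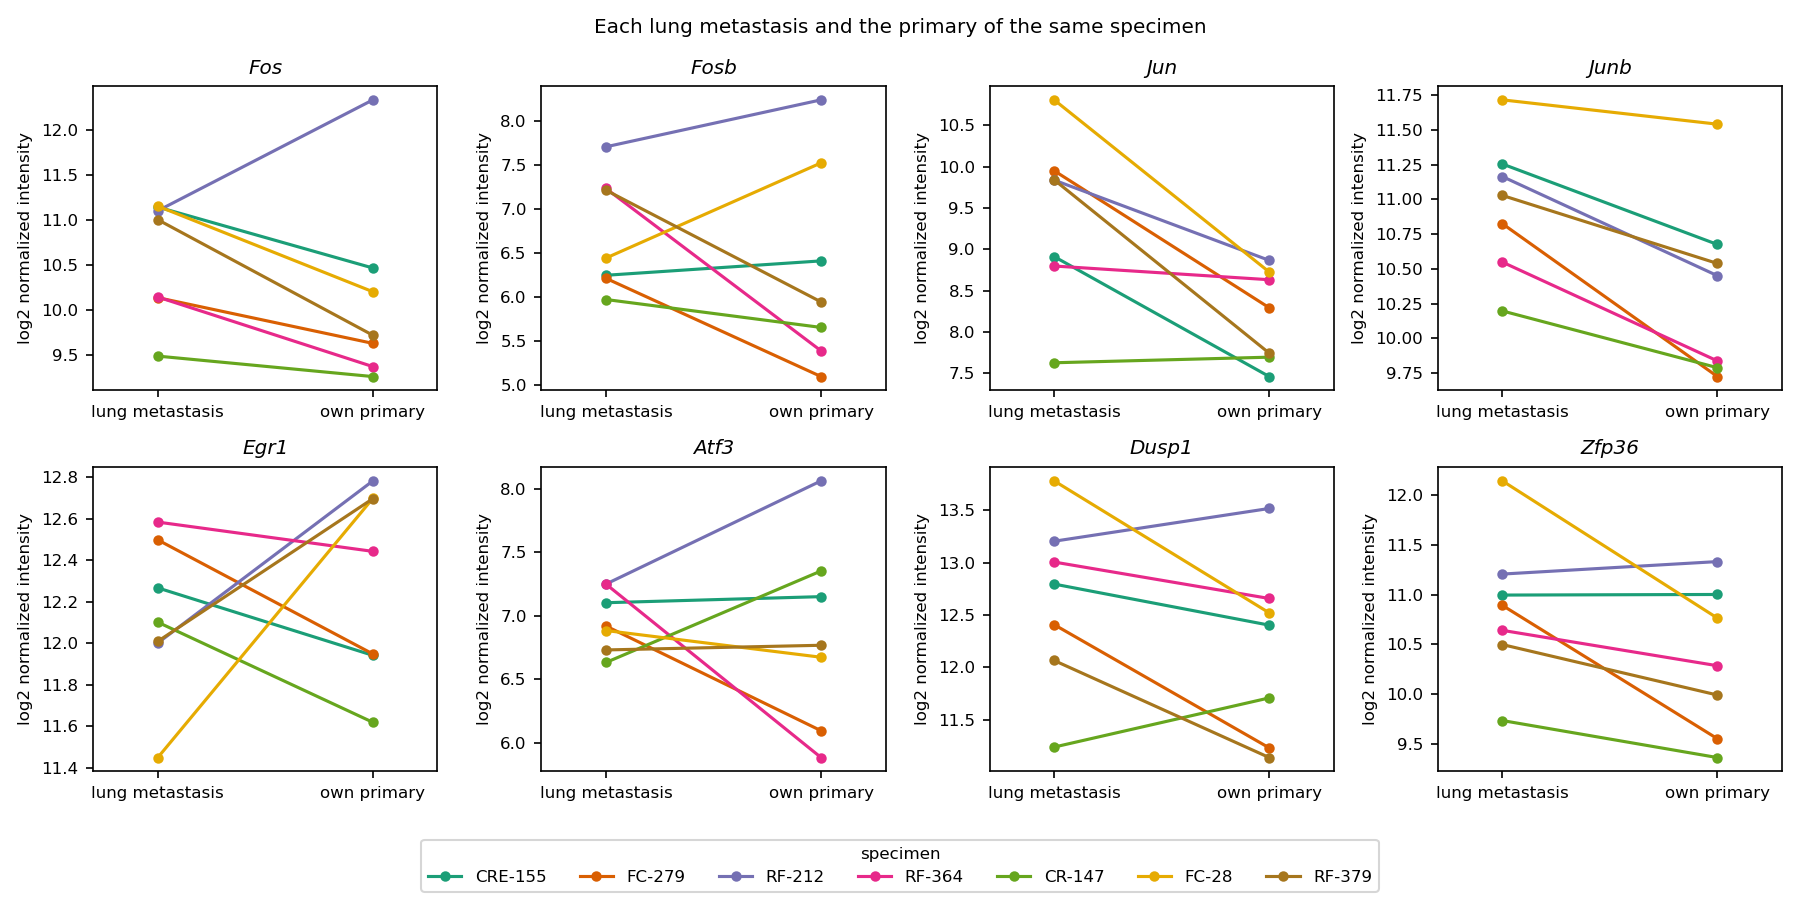
Log2 normalized intensity in each lung metastasis (left) and in the primary of the same specimen (right) for the 8 genes tested; a line joins the 2 tissues of a specimen. All 7 lines of Junb fall from lung metastasis to primary, 6 of 7 do so for Jun, and the lines of Egr1 and Atf3 run both ways.

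Other quantities moved with the same comparison. Lung epithelium markers rose in 10 of 10 tested (summed intensity of the 11 on the array 87999 to 203606 in lung metastases and 829 to 1369 in their own primaries), with Epcam detected in neither group. Skeletal muscle markers fell in 10 of 10, and hepatocyte markers rose in 3 of 8, mainly in RF-364, CR-147 and RF-379. Of 9 endothelial markers 2 rose, and their mean log2 level was higher in 7 of 7 lung metastases than in their own primaries (summed intensity 11284 to 85456 in lung metastases and 7801 to 12406 in their own primaries). Of the B and plasma cell markers 3 of 3 tested rose, with a mean level higher in 7 of 7 pairs, and of the T and NK cell markers 1 of 5 rose, with a mean level higher in 6 of 7 pairs. Of 8 macrophage markers 1 rose, with a mean level higher in 6 of 7 pairs but only 3 of 8 fold changes above 0. Of 11 tested neutrophil and marrow myeloid markers 1 rose and 9 had fold changes above 0, with a mean level higher in 4 of 7 pairs. The background of the arrays, measured as the median signal of undetected probes, was 43.8 to 50.2 in lung metastases and 53.9 to 76.8 in their own primaries, so it did not overlap between the groups. When the background entered the fit, Jun had a log2 fold change of 2.59 (adjusted p = 0.258 by limma) and Junb one of 0.17 (adjusted p = 0.900), and neither was called. Over all genes that fit called 17 higher and 9 lower, in place of 639 and 291. As the background did not overlap between the groups, the fit cannot cleanly separate tissue from background. In FC-28, the pair whose arrays were closest in background (43.8 in the lung metastasis and 53.9 in the primary), the differences were 2.08 for Jun and 0.17 for Junb. The lung metastasis of FC-28 also had the highest lung epithelium and endothelial sums (203606 and 85456), so this pair does not separate background from lung tissue. The part of lung tissue, muscle, endothelium, lymphocytes, myeloid cells and array background in these differences was not tested otherwise. In bulk tissue more cells of a type and more RNA per cell cannot be told apart.

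Both calls lay close to the threshold. With median scaling of the arrays in place of quantile normalization, which moved the median of all genes by -0.27, Jun kept its call (0.89, adjusted p = 0.0470 by limma) and Junb did not (0.24, adjusted p = 0.286). The Jun call was lost without CRE-155, RF-379, RF-212, FC-279 or FC-28 (adjusted p = 0.0831, 0.0865, 0.0899, 0.104 and 0.0698) and that of Junb without CRE-155, RF-364, CR-147, RF-379, RF-212 or FC-279 (adjusted p = 0.0712, 0.0945, 0.0602, 0.0752, 0.0984 and 0.109, all by limma). With each of the 7 specimens left out in turn, the log2 fold change was 1.04 to 1.40 for Jun and 0.51 to 0.67 for Junb. Without the block on specimen neither was called (adjusted p = 0.131 for Jun and 0.312 for Junb by limma). Without the 3 pairs with hepatocyte transcripts in the lung metastasis, Jun kept its call (1.54, adjusted p = 0.0307) and Junb did not (0.64, adjusted p = 0.194).

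Liver metastases numbered only 2, from CR-147 and RF-342, and no member was called in them. Against the metastatic primaries, where 7.09% of 13517 genes were called higher and 2.27% lower by limma, 0 of 9 members tested were called in either direction, and 0 had an unadjusted p under 0.05. Fos had 8.53 and 9.37 in the liver metastases, against 9.26 to 12.33 in metastatic primaries (log2 fold change -0.87, SE 0.51, 95% interval -1.92 to 0.19, adjusted p = 0.353 by limma). Egr1 had a log2 fold change of -0.54 (interval -1.21 to 0.14), and the median of the 9 was -0.04, beside -0.17 over all genes tested. The 9 included Ier2, detected in 0 of 2 liver metastases and 1 of 12 metastatic primaries. The fit was over 21 arrays, with the lung metastases included and the specimen as a random block.

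Against the lung metastases, 5.76% of the genes were called higher and 3.25% lower in the liver metastases (9.01% in all), and again 0 of 9 members were called. Fos was the 1 of 9 with an unadjusted p under 0.05 (log2 fold change -1.30, SE 0.53, interval -2.40 to -0.20, adjusted p = 0.155 by limma). The higher liver metastasis for Fos (9.37) and the lowest lung metastasis (9.49) were both of CR-147. Fos passed in 1 of 21 fits that each left out 1 array. That fit was without the metastatic primary of RF-212 (-1.35, adjusted p = 0.0326 by limma). Over the 21 fits the log2 fold change of Fos ran from -2.08 to -0.71. The array of that primary enters this comparison through the shared spread and through its block with the lung metastasis of the same specimen. Junb had a log2 fold change of -0.79 (interval -1.61 to 0.02, adjusted p = 0.280 by limma). Ier2 was detected in 0 of 2 liver metastases, 3 of 7 lung metastases and 1 of 12 metastatic primaries. It met the detection filter without a liver array, so its log2 fold change of -0.47 is no result about liver metastases. The members' median, with Ier2 counted, was -0.51, with 1 of 9 above 0, beside -0.10 over all genes tested. Both comparisons share the liver arrays, so they are not independent of each other. All 10 hepatocyte markers were higher in liver metastases than in either other group (summed intensity 293759 and 296377, against 2742 to 52465 in lung metastases and 821 to 4724 in metastatic primaries), and their part in the members' values was not tested. In the liver metastases, lung epithelium markers were called higher than in metastatic primaries in 7 of 10 tested, and lower than in lung metastases in 6 of 10. Their part was not tested either.

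CR-147 gave all 3 tissues. Fos stood at 9.37 in its liver metastasis, 9.49 in its lung metastasis and 9.26 in its primary, so the 3 tissues were nearly level. Junb stood at 10.15, 10.20 and 9.79 in the same order of tissues, with the primary lowest. Jun stood at 8.63 in the liver metastasis, 7.63 in the lung metastasis and 7.70 in the primary, and Atf3 at 8.15, 6.63 and 7.35. Single arrays give no test of these differences. Summed lung epithelium markers were 18292.5 in the liver metastasis of CR-147, 2821 in that of RF-342 and 829 in the primary of CR-147. The lung metastasis of CR-147 had the highest hepatocyte marker sum of the 7 (52465) and the lowest lung epithelium marker sum (87999). The part of these transcripts in the members' values was not tested. Of the 7 lung metastases that of CR-147 had the lowest Fos, Fosb, Jun, Junb, Atf3, Dusp1 and Zfp36, while that of FC-28 had the highest Fos, Jun, Junb, Ier2, Dusp1 and Zfp36.

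Between primaries, several members went up and down together. The metastatic primary RF-212 and the localized primary CR-65 had the 2 highest levels of Fos (12.33 in RF-212 and 12.43 in CR-65), Fosb (8.24 and 7.97 in that order), Dusp1 (13.52 and 13.94), Zfp36 (11.33 and 11.44) and Atf3 (8.06 and 8.88). Junb was highest in the metastatic primaries CR-45 (11.65) and FC-28 (11.54), and Jun in the localized primary RF-56 (10.49). CR-65, RF-56, CR-45 and FC-28 are the 4 primaries low in osteoblast markers, whereas RF-212 had a summed intensity of 130644 for those markers.

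**Figure D4:**
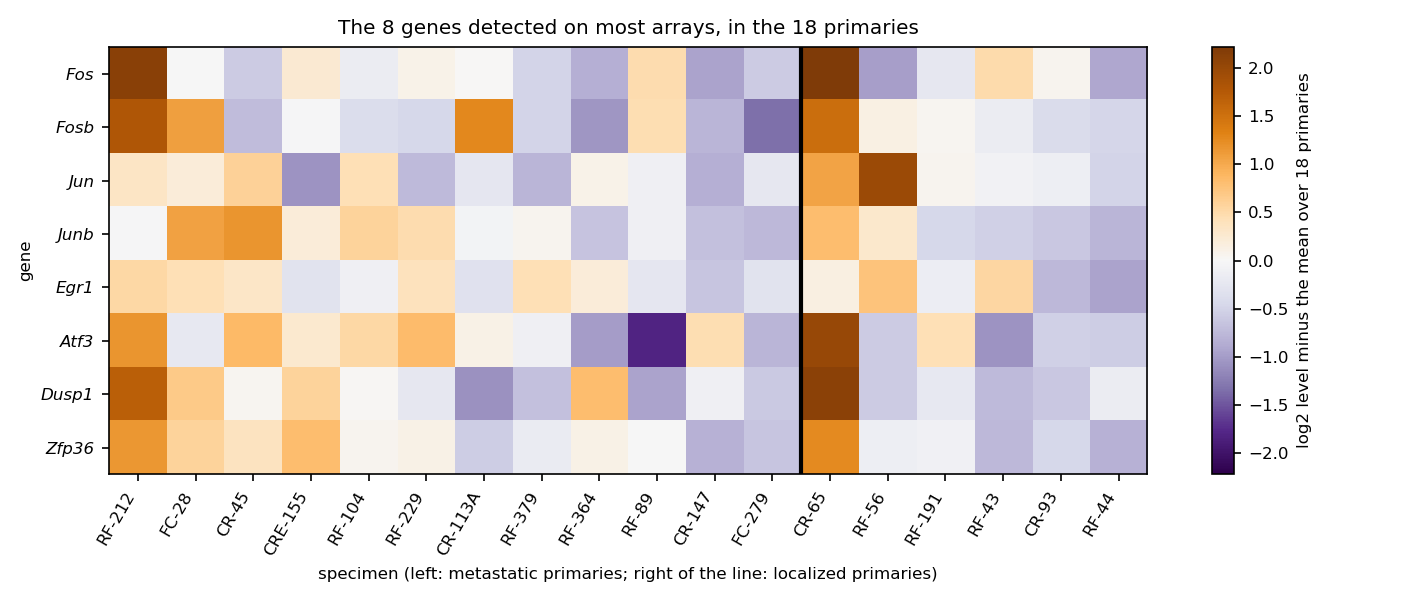
Log2 level of the 8 genes detected on most arrays minus their mean over the 18 primaries, as colours; the 12 metastatic primaries are left of the line and the 6 localized primaries right of it, each ordered by their mean over all 10 members. RF-212 and CR-65 are high in Fos, Fosb, Atf3, Dusp1 and Zfp36, while Jun is highest in RF-56 and Junb in CR-45 and FC-28.

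All 45 pairs of members were correlated over the 18 primaries, and 5 pairs passed a Benjamini-Hochberg adjusted permutation p under 0.05 over the 45 by Pearson's r, all with positive r. The closest pair was Dusp1 and Zfp36, the 2 genes that dampen the response, with r = 0.82 and rho = 0.69 (permutation p = 3e-05 and 0.00248, adjusted p = 0.00135 and 0.0558). Fos and Fosb had r = 0.76 and rho = 0.64 (permutation p = 0.00026 and 0.00514, adjusted p = 0.00585 and 0.0771). Fos and Zfp36 (r = 0.68, rho = 0.50), Junb and Zfp36 (r = 0.67, rho = 0.74) and Atf3 and Dusp1 (r = 0.63, rho = 0.55) were the others, with adjusted permutation p-values of 0.0273, 0.0273 and 0.0452 for r, and by Spearman's rho only Junb and Zfp36 passed (adjusted p = 0.0275). Without CR-65 and RF-212, the 2 primaries farthest from the median of the members' mean, 0 pairs passed by r and 1 by rho. The correlation of Dusp1 and Zfp36 was then 0.63, that of Fos and Fosb 0.49, that of Fos and Zfp36 0.26, that of Junb and Zfp36 0.74 and that of Atf3 and Dusp1 0.28, so the relations of Fos with Zfp36 and of Atf3 with Dusp1 rest largely on those 2 tumours. Fos and Dusp1 had r = 0.61 with them and -0.22 without. Over the 28 pairs of the 8 genes detected on 26 or 27 arrays, the median r was 0.42 with 28 of 28 above 0, and 0.21 with 21 of 28 above 0 without those 2. With levels centred on each group 5 pairs passed by r. Without the 4 primaries low in osteoblast markers 1 pair passed by r and 0 by rho, and 26 of the 28 had r above 0. The median r was not taken over pairs of other genes.

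Other genes varied with the members as well. For each of 10003 other genes detected on at least 14 primaries, r was taken with the mean of the 10 members over the 18 primaries as a description; the genes were measured on the same arrays. The genes most like the members were Peak1, a pseudokinase of the cytoskeleton (r = 0.88), Ier3, an immediate early gene that affects cell survival (0.80), Rgs1, a regulator of G protein signalling (0.80), Osm, the cytokine oncostatin M (0.78), Pafah1b1, a regulator of dynein (0.76), Adamts1, a secreted metalloprotease (0.76), Socs6, of a family that dampens cytokine signalling (0.76), and Spink2, a protease inhibitor (0.76). Without CR-65 and RF-212, r was 0.91 for Peak1, 0.77 for Ier3 and 0.86 for Osm, but 0.35 for Adamts1 and 0.57 for Rgs1. Of the 37 ranked genes on a list of other immediate early genes, 6 were among the first 50: Ier3, Cebpb, Nfkbiz, Klf6, Csrnp1 and Trib1. The median r of that list was 0.38, beside -0.03 over all genes ranked. Among cell type markers the median r was -0.54 for osteoblasts, -0.53 for osteoclasts, -0.44 for endothelium and 0.37 for macrophages. It was -0.34 for skeletal muscle, -0.30 for smooth muscle and pericytes, 0.22 for lung epithelium, 0.11 for neutrophils and marrow myeloid cells and -0.07 for erythroid cells. Some markers had the opposite sign to their list: Cdh5 (0.27) and Vwf (0.23) of endothelium, Csf1r (-0.33) of macrophages and Acta2 (0.13) of smooth muscle. The part of cell composition in these values was not tested.

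The wider pathway was described with 5 lists. In the comparison of lung metastases with their own primaries, 4 of 39 tested other immediate early genes were called higher and 0 lower, beside 5.7% and 2.59% of all genes, with a median log2 fold change of 0.23. They were Ier3 (1.19, SE 0.26, adjusted p = 0.0244 by limma, higher in 7 of 7), Phlda1, a regulator of cell death (1.12, adjusted p = 0.0340, 6 of 7), Csrnp1, a nuclear protein (0.71, adjusted p = 0.0430, 7 of 7), and Cebpb, a bZIP factor of inflammation (0.52, adjusted p = 0.0460, 7 of 7). Under median scaling, which called 5.73% of all genes higher and 18% lower, 0 of the 39 were called higher and 3 lower, and the median was -0.10, beside -0.32 over all genes. The call was lost without RF-364, RF-379 or FC-279 for Ier3, without any specimen but FC-28 for Phlda1, without any but CR-147 for Csrnp1 and without any of the 7 for Cebpb. Without the block on specimen, with array background in the fit, or without the 3 pairs with hepatocyte transcripts, none of these 4 was called by limma. The fit with array background called only 17 of all genes higher.

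Of 19 tested upstream kinases and SRF factors, 1 was called higher and 0 lower, beside 5.7% and 2.59% of all genes in this comparison. It was Map3k1, a kinase at the head of the JNK pathway that phosphorylates JUN (0.68, adjusted p = 0.0246 by limma, higher in 7 of 7). Of 13 tested AP-1 target genes, 1 was called higher and 0 lower: Vegfa, the vascular growth factor (1.63, adjusted p = 0.0224 by limma, 7 of 7), and the list's median was -0.30. No other AP-1 or bZIP partner of 15 was called by limma, and those with the smallest p were Mafk, a small MAF protein (0.60, unadjusted p = 0.0242), and Jund, the third JUN protein (0.63, unadjusted p = 0.0296 by limma). Of 11 heat shock genes, which mark cell stress, 0 were called, and Hspe1 (-0.59) and Hspa1b (-0.60) had the smallest p, with a median of -0.32. Under median scaling, where 18% of all genes were called lower, 0 of the 19 kinases and SRF factors were higher and 5 lower, 1 of the 15 partners was lower, and 4 of the 11 heat shock genes were lower. Map3k1 lost its call under that scaling, without the block on specimen, and without CRE-155, RF-364, RF-212 or FC-279, while Vegfa kept its call under that scaling and without the block but lost it without FC-279. Neither was called with array background in the fit or without the 3 pairs with hepatocyte transcripts. The former fit called only 17 of all genes higher.

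**Figure D5:**
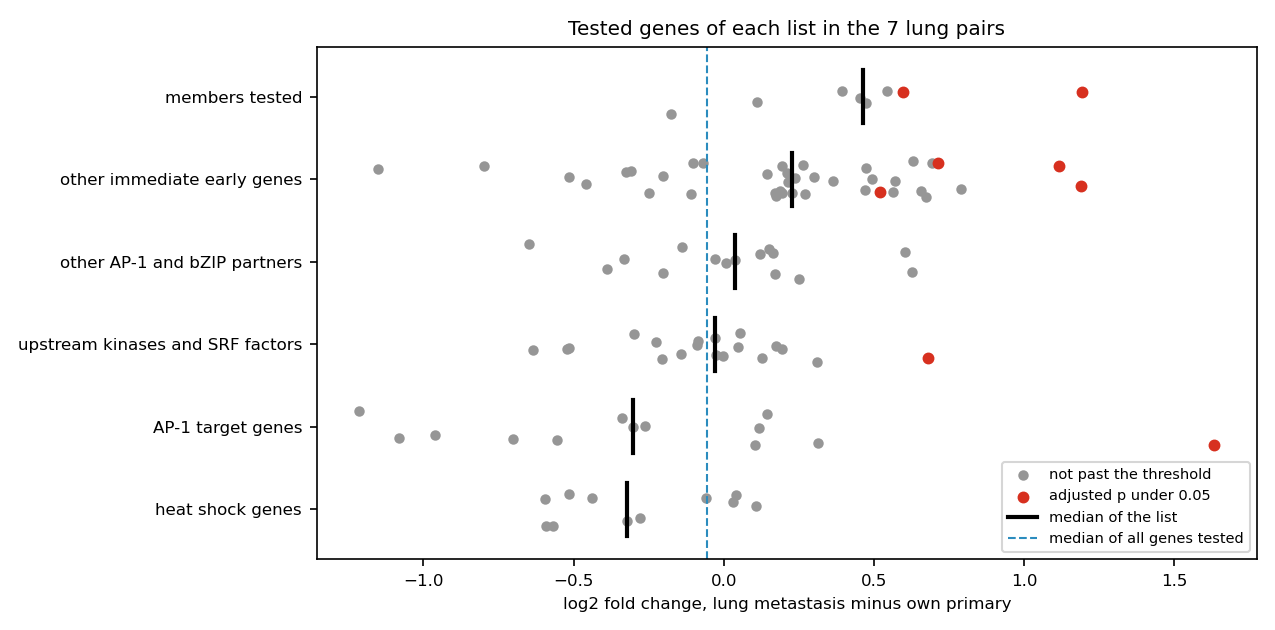
Log2 fold change between lung metastases and their own primaries for every tested gene of the members and of 5 lists; points are genes, red ones have an adjusted p under 0.05 by limma, black bars are list medians and the dashed line is the median of all genes (-0.06). The members' median of 0.46 lies farthest right, and the heat shock genes' median of -0.32 farthest left.

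Between metastatic and localized primaries no gene of these lists was called by limma. The smallest p-values were those of Mmp14, a membrane metalloprotease, and Hmox1, haem oxygenase, among AP-1 targets (-0.66 and 0.91), Klf10 and Nr4a2 among other immediate early genes (0.46 and -0.65), Mafk and Mafg among partners (0.31 and -0.21), Map2k4 and Elk3 among kinases and SRF factors (0.28 and -0.22), and Hsph1 and Hspa8 among heat shock genes (-0.50 and 0.15). Against metastatic primaries, 7.09% of all genes were called higher and 2.27% lower in the liver metastases. There Fosl2, a FOS family partner of JUN, was lower (-1.39, SE 0.37, adjusted p = 0.0167 by limma, 1 of 15 partners). Of 20 kinases and SRF factors 2 were lower: Elk3, an SRF cofactor (-1.27, adjusted p = 0.000692 by limma), and Rps6ka3, a kinase downstream of ERK (-1.02, adjusted p = 0.0430). Against lung metastases, where 5.76% of all genes were called higher and 3.25% lower, Fosl2 was lower too (-1.40, adjusted p = 0.0212 by limma, 1 of 15 partners). Plk3, a stress-responsive kinase, was higher (1.34, adjusted p = 0.0425 by limma). It was 1 of 44 other immediate early genes, a smaller share than over all genes. The second probes of Fosl2 and Elk3 did not pass (-0.50 and -0.50 against metastatic primaries, -0.15 for Fosl2 against lung metastases). Leaving out either liver metastasis lost the calls of Fosl2, Rps6ka3 and Plk3, and leaving out that of CR-147 lost that of Elk3 (adjusted p = 0.0593 by limma). Rps6ka3 also lost its call without the metastatic primary of CRE-155, CR-147, RF-379, RF-212, RF-89 or CR-45 or the lung metastasis of RF-379, and Plk3 without the metastatic primary of RF-364, CR-147, RF-379 or RF-104 or the lung metastasis of FC-279, RF-364, CR-147 or RF-379. Over all 21 such fits the log2 fold change was -1.14 to -0.91 for Rps6ka3 and 1.15 to 1.42 for Plk3.

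In the lists with no call in the liver metastases, the genes with the smallest p were the following. Against metastatic primaries they were Nr4a2 and Errfi1 among 44 other immediate early genes (-0.96 and 1.45), Mmp14 and Mmp9 among 14 AP-1 targets (-1.0 and -1.81), and Hspb1 and Hspa1a among heat shock genes (-1.72 and -1.21). Against lung metastases they were Elk3 and Srf among kinases and SRF factors (-0.74 and -0.63), Mmp9 and Cd44 among AP-1 targets (-2.06 and -0.72), and Hspa5 and Hsph1 among heat shock genes (0.90 and 0.85). None of these passed by limma.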

How the data were processed

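The 27 Illumina arrays were deposited with average bead signal as linear intensity, the bead standard deviation as intensity and a detection score as a fraction from 0 to 1, per the file headers. BeadStudio is named in the submitters' processing notes, without a version. The authors also deposited a log2 value table with a median of 5.9 on every array, whose background correction and normalization are not given in the sources used here. It was matched to the scanner values by rank for 45281 of 45281 probes, and used as an alternative. GEO's platform annotation gave 34885 probes 1 symbol, 18 several and 10378 none, and 0 symbols were updated.

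The intensities were background-corrected with nec from detection p-values (1 minus the deposited score) and offset by 16. They were then taken to log2 and quantile normalized over 27 arrays (limma 3.58.1, R 4.3.3). lmFit and eBayes tests were two-sided, with Benjamini-Hochberg adjustment over all genes tested and a threshold of 0.05. A gene had to be detected on at least 6 of 18 primaries, 7 of 14 paired arrays or 2 of 21 arrays in the liver comparisons. The lung comparison had specimen as a fixed block, since the labels give each lung metastasis its primary; deviations of paired arrays correlated at 0.32 to 0.54 over 7 pairs, but in RF-212 and FC-28 (2 of the 7) the lung metastasis was closer to the primary of another specimen. The liver comparisons had specimen as a random block (consensus correlation 0.355). Scripts were tested on simulated data. The number of arrays limits the precision.

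The members and lists were chosen with earlier results of these data known. All 10 members are named; of each list, up to 6 genes past the threshold, or else the 2 with the smallest p; and the 8 genes most like the members' mean. Correlations used 100000 permutations. Alternatives were median scaling, no background correction, another offset, detection filters, array background, array weights, other blocks, the authors' table and leaving out specimens.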

Additional observations from a re-analysis of the deposited data

Results flagged for a closer look

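The search covered 20 sets of values of 1 gene in 1 group of 6 or 7 arrays. In 5 sets an array's gap to its nearest neighbour was a large share of the range of the group (above Dixon's critical value at 95%). Chance gives about 1 in 20 for a set, but the sets share arrays, so these 5 are not independent of each other. The localized primary CR-65 was the highest of 6 in 4 of them. Its log2 level was 7.97 for Fosb (next highest 6.57), 13.94 for Dusp1 (next 11.67) and 11.44 for Zfp36 (next 10.09). For Nr4a1 it was 4.75 (next 4.62), not above background. The lung metastasis of FC-28 had an Ier2 level of 5.96, against 5.30 in the next highest of 7. CR-65 and the lung metastasis of FC-28 had the lowest summed osteoblast marker intensity of their groups, 1478 and 970, whose part in these levels was not tested.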

How the results depend on the processing

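Between metastatic and localized primaries no member was called under any alternative. The log2 fold change of Dusp1 turned to -0.061 with median scaling and -0.021 with the specimen prefix as a term. Those of Fos and Fosb turned to 0.042 and 0.061 with array weights and to 0.14 and 0.15 without the 4 primaries low in osteoblast markers. Fosb was 0.15 on arrays of low background, Egr1 was -0.19 on those of high background, and Fos was 0.061 without CR-65 and RF-212. The 1 gene called lower became 0 with the prefix, without the 4 primaries, on low background, without CR-65 and RF-212 and in a fit of all 27 arrays; 1 gene was called higher on high background. In the lung comparison, median scaling called 2022 genes lower and gave Junb 0.24 and Atf3 -0.072. Jun was 1.19 with no detection filter (adjusted p = 0.0748 by limma), and genes detected on all arrays gave 274 higher and 142 lower. With array background as a covariate beside the replicate block, 17 were higher and 9 lower, with Fosb -0.077, Jun 2.59, Junb 0.17 and Phlda1 -0.11. Array weights called 452 lower. With no replicate block 85 were lower and neither Jun (1.19) nor Junb (0.60) was called; with specimen as a random block Junb (0.60) was not. Without the 3 pairs with hepatocyte transcripts 414 were higher and 56 lower, with Fosb -0.17 and Junb 0.64; all 27 arrays gave 1146 and 967, with Junb 0.46. Of the liver comparisons, that with metastatic primaries gave 476 lower genes with median scaling, 500 with array weights, and 314 higher on genes detected on all arrays, where Dusp1 was 0.0012. With array background as a covariate it gave 613 higher and 122 lower, with Jun -0.12, Ier2 0.41 and Dusp1 0.39. That with lung metastases gave 230 higher and 182 lower on genes detected on all arrays, and 711 lower with array weights. Of the correlations between members, 0 pairs passed without the 2 primaries farthest from the median and 1 without the 4 low in osteoblast markers. Leaving out 1 specimen or array at a time gave these ranges. Metastatic against localized primaries had 0 to 1 genes higher and 0 to 1 lower, Fos -0.38 to 0.26, Fosb -0.33 to 0.12, Egr1 -0.074 to 0.27, Atf3 -0.13 to 0.49 and Dusp1 -0.10 to 0.48. Lung metastases against own primaries had 391 to 629 genes higher and 83 to 252 lower, Jun 1.04 to 1.40, Junb 0.51 to 0.67, Egr1 -0.30 to 0.0049 and Atf3 -0.097 to 0.27. Liver metastases against metastatic primaries had 502 to 1058 higher and 62 to 497 lower, Fosb -0.73 to 0.28, Jun -0.12 to 0.94, Atf3 -0.41 to 1.21, Ier2 -0.13 to 0.079, Dusp1 -0.58 to 0.38 and Zfp36 -0.057 to 0.62. Liver against lung metastases had 374 to 868 higher and 135 to 556 lower, Egr1 -0.91 to 0.046, Atf3 -0.48 to 1.14 and Zfp36 -0.64 to 0.031. The cause of these differences was not tested. Ier2, above background on 4 arrays, and Nr4a1, on 0, are limited by signal over background.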
